A study of Mus musculus with 2 samples.

Results

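Cytosolic ribosomal proteins are the protein part of the ribosomes that translate nuclear mRNAs. Proteins named Rpl sit in the large 60S subunit, which forms peptide bonds, and proteins named Rps sit in the small 40S subunit, which decodes the mRNA. Their mRNAs are abundant in growing and in resting cells, and many of them begin with a run of pyrimidines, the 5′ terminal oligopyrimidine (TOP) tract, through which mTORC1 signalling adjusts their translation. Members were found by gene symbol alone, as Rpl or Rps followed by a number, or Rplp, without the ribosomal S6 kinases and without names marked as pseudogenes. The rule found 62 genes of 19937 with a probe set annotated to a single symbol. Of these, 33 encode 60S proteins and 20 encode 40S proteins. A further 8 are paralogs or retrogenes, and 1, Rps19bp1, encodes a protein named for binding Rps19 and is not part of the ribosome.

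Langerhans cells, the antigen-presenting cells of the epidermis, came from 2 genotypes of mice. Il34+/LacZ animals keep 1 working copy of Il34, which encodes a ligand of the CSF1 receptor, and Il34LacZ/LacZ animals carry LacZ in both copies, so both groups hold a LacZ allele and neither is wild type. Mice of both genotypes were 8 to 12 weeks old, received 30 min of ultraviolet light, and gave Langerin+ Epcam+ sorted cells 21 days later. Each genotype is represented by 1 array (n = 1), so no replicate error exists and no test was made between genotypes. The labels do not say whether cells of several animals were pooled.

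Both arrays carried the sorting markers. Cd207, which encodes Langerin, read 3153 and 1852 intensity units on the Il34+/LacZ and Il34LacZ/LacZ arrays, and Epcam 633 and 708. T cell genes were read on both arrays too, with Cd3e, a chain of the T cell receptor complex, at 1245 and 1250.3, and 6 T cell genes summed to 7299.8 and 6387. Other cell type lists differed between the arrays: 12 keratinocyte genes summed to 5246 and 981, 9 macrophage genes to 1511 and 3003, and 9 neutrophil genes to 370.2 and 1577, and no marker of these lists was at 0. In the keratinocyte list, 10 of 12 had a 1.5-fold or larger deficit in Il34LacZ/LacZ, against 28.2% of all genes. By contrast, 4 of 8 macrophage genes were higher there by 1.5-fold or more, against 9.36% of all genes. These counts had the dimmer array set no lower than the floor, an intensity of 48.7. Krt1 and Dsc3 of the keratinocyte count reached the floor only on the Il34+/LacZ array. Camp, Ngp, Mpo and Elane of the neutrophil list reached it only on the Il34LacZ/LacZ array, where they were high. No neutrophil count is given for this reason. S100a8 read 71.9 and 552, and S100a9 read 103 and 699. Ly6g, Retnlg and Cxcr2 were below the floor on both arrays. Adgre1 of the macrophage list went the other way, at 281 and 145 (difference -0.89). The part of these lists in the ribosomal protein values was not tested, and in sorted material fewer cells of a type and less RNA per cell cannot be told apart.

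RefSeq start windows are shown for the structural members whose TOP-like run was longest, because this tract is the sequence feature that the family shares outside its coding region. Each line runs 5′ to 3′ from 15 bases before to 15 bases from the annotated start of transcription (RefSeq, build GRCm38.p6), and the capitals mark the run that begins at the first transcribed base, a C followed by at least 4 bases that are each C or T. The last 2 lines give, for contrast, the annotated starts of Rps27l, the member with the largest difference between the arrays in the values as deposited.
Rps6: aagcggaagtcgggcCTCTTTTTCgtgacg
Rpl28: ccgcctctcgtgtctCTCTTTCCgtctccg
Rpl38: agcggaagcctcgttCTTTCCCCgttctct
Rps10: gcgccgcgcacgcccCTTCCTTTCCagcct
Rps15a: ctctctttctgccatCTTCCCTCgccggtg
Rps18: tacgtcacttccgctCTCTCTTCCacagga
Rps27l, upstream start: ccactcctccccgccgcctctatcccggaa
Rps27l, downstream start: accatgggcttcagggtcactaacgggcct

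The windows lie at chr4:86857353-86857382 (Rps6, minus strand), chr7:4792950-4792979 (Rpl28, plus), chr11:114668565-114668594 (Rpl38, plus), chr17:27635230-27635259 (Rps10, minus), chr7:118116133-118116162 (Rps15a, minus), chr17:33955651-33955680 (Rps18, minus), chr9:66946071-66946100 and chr9:66946398-66946427 (Rps27l, plus). Of the 50 members with an entry in the promoter table, 10 had such a run at an annotated start (20%), against 3.01% of 27025 genes in the table. The search read the strand of the gene and only the exact annotated start, so a run a few bases away was not counted. The 9 structural members with the run had a median difference of -0.31 between the arrays and the 33 without it a median of -0.27.

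In the values as deposited, ribosomal protein genes read slightly lower in Il34LacZ/LacZ, a direction that turned under other scalings. Differences are log2(intensity + 16), Il34LacZ/LacZ minus Il34+/LacZ, and a gene was used if its brighter array reached 48.7, the median of all probe sets, called the floor. Of the 62 genes, 60 passed, and Rpl3l (44.3 and 33.5) and Rpl39l (24.9 and 18.1) were below the floor on both arrays. Their median difference was -0.28, or 1.22-fold lower, with an interquartile range from -0.47 to -0.10, and 49 of 60 were below 0 (81.7%), against 56.3% of all genes and 88.0% of other genes with a mean of 1000 or more. At this scale 8 of 60 were at least 1.5-fold lower (13.3%), against 29.9% of 12843 genes, and 1, Rpl10l, passed 1.5-fold higher, against 16% of genes. With the dimmer array set no lower than the floor, 8 were at least 1.5-fold lower, against 28.2% of genes, and 0 higher, against 9.36%. For scale, probe sets of one ribosomal protein gene differed among themselves with an SD of 0.42 on the log2 scale (152 probe sets of 36 genes), which bears on single genes and not on the family's median.

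**Figure D1:**
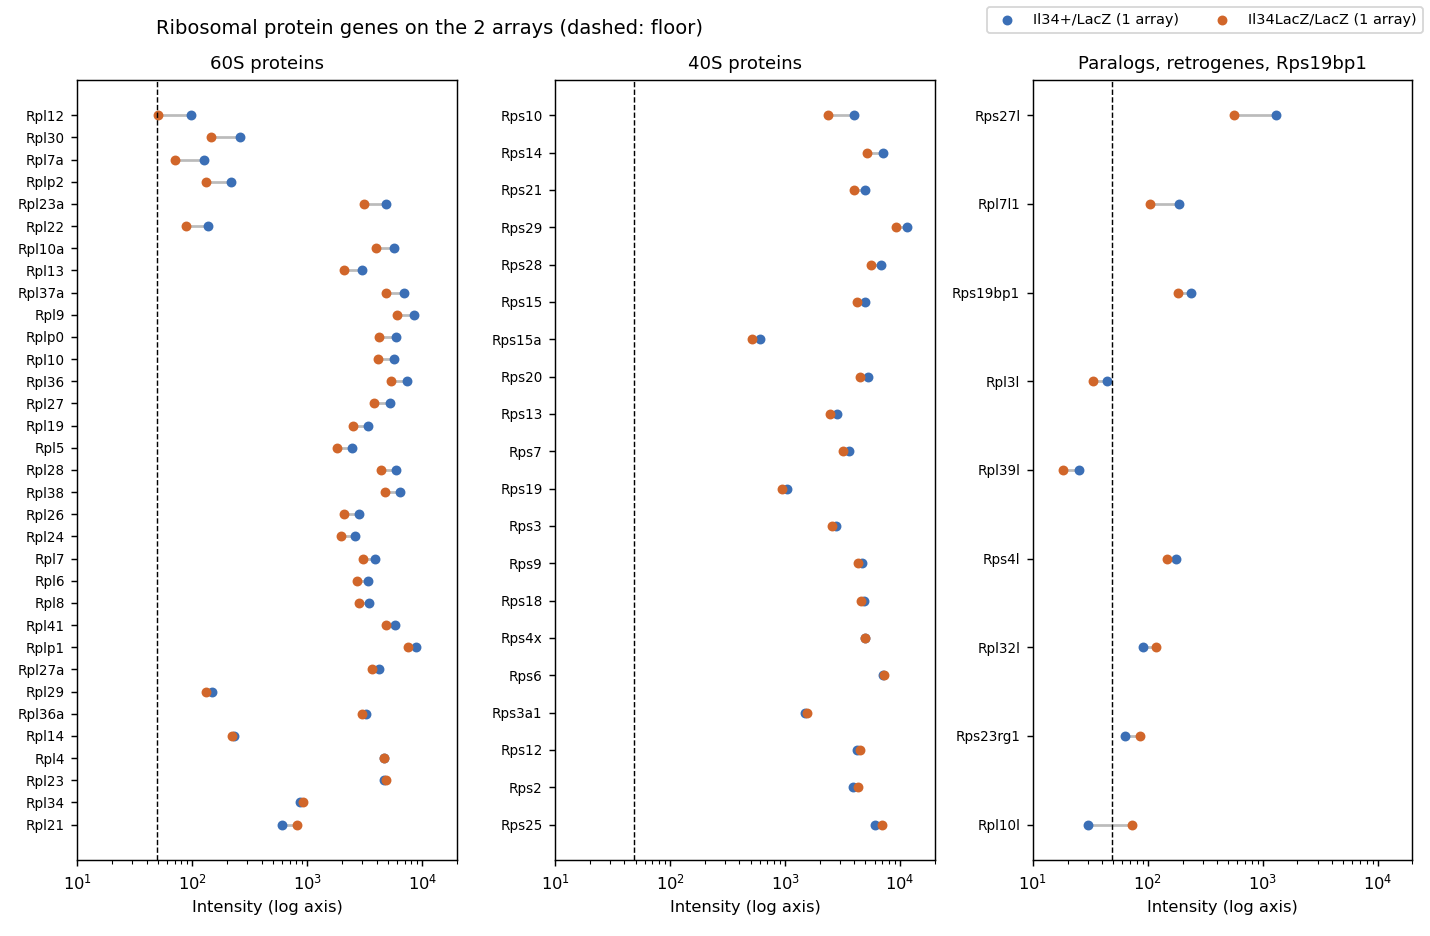
Intensity (log axis) of each of the 62 genes on the Il34+/LacZ array (blue) and the Il34LacZ/LacZ array (orange), 1 array each, ordered by their difference within the 60S, 40S and other groups, with the floor dashed. In these values as deposited, most 60S genes have the orange point to the left, and several 40S genes have both points on top of each other.

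The difference between the arrays varied with brightness, so bright members were also set beside other bright genes. Among the 42 members with a mean intensity of 1000 or more, 2 were at least 1.5-fold lower (4.76%) and none was 1.5-fold higher, with a median of -0.30. Among 351 other genes that bright, 144 were at least 1.5-fold lower (41.0%) and 8 were higher, with a median of -0.49. The interquartile range was 0.33 for the bright members and 0.56 for the other bright genes. The members were still the brighter set, with a median of 4861 against 1898 on the Il34+/LacZ array. At a mean of 2000 or more these medians were 4869 and 3583, and 4.88% of 41 members against 30.1% of 123 other genes were at least 1.5-fold lower. There the median differences were -0.31 and -0.43 and the interquartile ranges 0.33 and 0.44, a smaller contrast. With arrays centred on their medians, 26.2% of the 42 bright members and 55.8% of the other bright genes passed 1.5-fold lower, and of the members' own 108 bright probe sets 16.7% did so as deposited. The 62 genes made up 6.09% of the summed intensity of all single-symbol genes in Il34+/LacZ cells and 6.51% in Il34LacZ/LacZ cells, although their own sum was lower, at 178643 against 215673. After quantile normalization these shares were 6.30% and 6.29%, and with the dimmest probe set of each gene 2.80% and 2.86%.

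The sign of the family's median depended on how the arrays were set against each other. With arrays centred on their own medians, the members' median was -0.43 and that of all genes -0.31. With the 75th percentile as centre the members' median was -0.02 and that of all genes 0.11. Once the dependence of the difference on brightness had been taken out by loess, the members' median was 0.13, and 3 members were at least 1.5-fold lower and 3 higher, against 18.6% and 13.9% of all genes. The median of the bright members lay above that of the other bright genes by 0.19 as deposited, which centring cannot alter, by 0.10 with the trend removed and by 0.07 after quantile normalization.

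**Figure D2:**
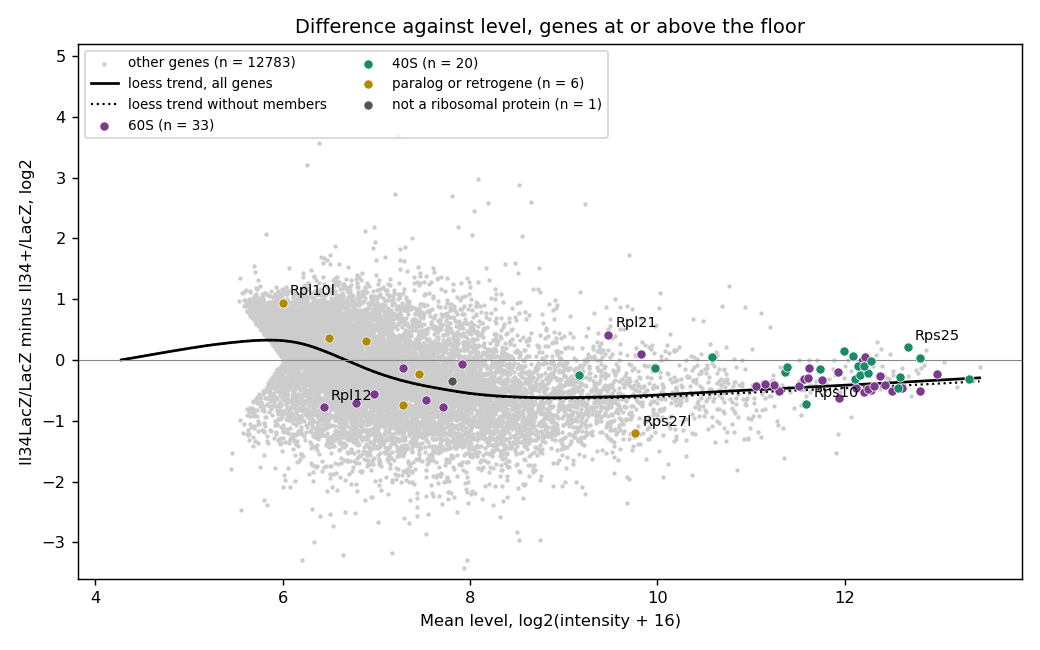
Difference between the arrays (log2, Il34LacZ/LacZ minus Il34+/LacZ) against the mean level (log2 of intensity + 16) for genes at or above the floor, with members coloured by group and loess trends with and without the members as lines. At the bright end the members scatter narrowly around and above the trend, while Rps27l lies well below it.

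Among 60S genes the lower reading in Il34LacZ/LacZ was widespread and small in the values as deposited, and with the trend removed their median was 0.02. Of 33 genes, 30 were below 0 (90.9%), against 56.3% of all genes and 88.0% of other genes with a mean of 1000 or more. At least 1.5-fold lower were 5 (15.2%), against 29.9% of all genes, and none was higher. The median was -0.42. The stalk, which recruits elongation factors to the ribosome, showed the lower reading in each of its 4 genes. Rplp0, the stalk's anchor, read 5884 and 4157 (difference -0.50), and Rplp1 read 8726 and 7458 (difference -0.23). Rplp2 read 216 and 132 (difference -0.65), and Rpl12, which binds at the stalk base, read 97.6 and 50.3 (difference -0.78). The probe sets of Rplp2 and Rpl12 were dim, and each of these genes had only this one.

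All 5 listed genes of the peptide exit tunnel with a single-symbol probe set were below 0, as were 84.9% of the structural members. Their median was -0.43, or 0.02 with the trend removed. Rpl23a, where targeting factors dock near the tunnel's end, read 4852 and 3133 (difference -0.63), and all 10 of its probe sets were below 0. Rpl19 read 3383 and 2505 (difference -0.43) and Rpl26 read 2784.5 and 2091 (difference -0.41). Rpl4, which reaches into the tunnel wall, read 4670 and 4639.5 (difference -0.01), nearly level between the arrays. Rpl22, known in mice for its part in T cell development, read 137 and 88.0 (difference -0.56).

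Genes of proteins that bind the p53 inhibitor Mdm2 differed from each other. Rpl5, which forms a complex with 5S ribosomal RNA, read 2451 and 1816 (difference -0.43), and its 3 probe sets at the floor were all below 0. Rpl23 read 4669 and 4821 (difference 0.05), and its other probe set gave -0.01. Among the remaining 60S genes, the middle of the group was narrow: Rpl10, which is added late in 60S assembly, read 5723 and 4089 (difference -0.48), Rpl28 read 5858 and 4372 (difference -0.42) and Rpl38, known in mice for translation of Hox mRNAs, 6348 and 4744.5 (difference -0.42). Rpl10a, Rpl13, Rpl37a, Rpl9, Rpl36, Rpl27 and Rpl24 lay between -0.52 and -0.40. The outlying 60S genes had intensities under 1000: Rpl30 read 258 and 145 (difference -0.77), Rpl7a 125 and 70.2 (difference -0.71, but 0.19 with the median over its probe sets), and at the other end Rpl21 599 and 806 (difference 0.42) and Rpl34 858 and 924 (difference 0.11). The other probe sets of Rpl7a were below the floor on both arrays, so its 0.19 is a value below the floor. The 5 probe sets of Rpl21 at or above the floor had a median of -0.11, and 3 of them were below 0.

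Among 40S genes the difference was smaller, several read nearly the same on both arrays, and with the trend removed their median was 0.30. Of 20 genes, 15 were below 0 (75%), against 56.3% of all genes. Of the 18 with a mean of 1000 or more, 72.2% were below 0, against 88.0% of other genes that bright. At least 1.5-fold lower was 1 of the 20 (5%), against 29.9% of all genes. None was 1.5-fold higher, and the median was -0.14. Rps6, the 40S protein phosphorylated by S6 kinases downstream of mTORC1, read 7072 and 7213 (difference 0.03). Rps2 and Rps3, which line the mRNA entry channel, read 3873 and 4271 (difference 0.14) and 2765 and 2546 (difference -0.12). Rps15, whose tail reaches the decoding site, read 4999.7 and 4189 (difference -0.25). With these probe sets the genes of the mRNA path lay on both sides of 0. The other probe sets of Rps2 gave -0.24 and -0.21, and those of Rps15 -0.68 and -0.55. With the trend removed, Rps2, Rps3 and Rps15 were all above 0, at 0.56, 0.35 and 0.15.

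At the mRNA exit, Rps14, a protein of the 40S platform, read 7089.9 and 5168 (difference -0.46), and Rps28 read 6778 and 5609 (difference -0.27). Rps10, a target of the ubiquitin ligase that marks collided ribosomes, read 3958 and 2377 (difference -0.73), the lowest of the 40S genes, and its second probe set gave -0.83. Rps25, needed for some internal ribosome entry sites, read 6049.8 and 7006 (difference 0.21), the highest 40S value. Its 6 probe sets at or above the floor had a median of -0.09, and 4 of them were below 0. Rps12, Rps3a1 and Rps4x lay within 0.07 of 0 with their brightest probe sets. The probe sets of Rps4x at or above the floor ran from -1.76 to -0.02, and those of Rps12 from -1.03 to 0.07. Rps29 read 11420.5 and 9238 (difference -0.31), and its 4 probe sets ran from -0.41 to -0.23.

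Genes mutated in Diamond-Blackfan anaemia, a human disorder of red cell production, included 8 with a single-symbol probe set of 15 listed. All 8 were below 0, as were 84.9% of the structural members and 88.0% of other genes with a mean of 1000 or more. Their median was -0.36, or 0.06 with the trend removed, and Rps10 alone was at least 1.5-fold lower. Rps19, the gene most often mutated in patients, read 1038 and 946 (difference -0.13). Among members that the list takes from the X chromosome, Rps4x read 4989 and 4922, Rpl10 is given above, and Rpl36a read 3267 and 2987 (difference -0.13), so these genes ranged from -0.48 to -0.02. Ribosomal proteins that the symbol rule leaves out read alike: Fau, whose product yields a 40S protein, read 5184 and 4857 (difference -0.09), and Rpsa, a 40S protein also called the laminin receptor, read 4534 and 4002 (difference -0.18).

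Rps27l had the largest difference of the members as deposited, but not under every setting. It encodes a near-identical copy of Rps27 and is a p53 target in human cells. It read 1302 in Il34+/LacZ cells and 557 in Il34LacZ/LacZ cells, 2.30-fold lower (difference -1.20), and -0.61 after removal of the trend, where Rpl12 (-0.93), Rpl7a (-0.64), Rpl34 (0.69), Rpl21 (1.03) and Rpl10l (0.63) were larger in size. After quantile normalization Rpl12 (-0.80), Rpl21 (0.92) and Rpl10l (0.84) exceeded its -0.70 in size. With the 75th percentile as centre, Rpl10l (1.21) exceeded the -0.94 of Rps27l. Rps27l was at least 1.5-fold lower in each of the 10 settings computed per gene, from -1.35 to -0.59, although it has a single probe set, on which changes of the probe set rule have no bearing. The other members without it had a median of -0.27. Rps27 had no probe set with a single symbol here, so the pair could not be set side by side.

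The other paralogs were dim. Rpl7l1, a paralog of Rpl7, read 186 and 105 (difference -0.74), Rps4l 174 and 146 (difference -0.23), and Rpl32l and the retrogene Rps23rg1 were higher by 0.31 and 0.37. Rpl10l, a testis paralog of Rpl10 in mice, was below the floor on the Il34+/LacZ array and read 72.7 on the other, at least 1.37-fold higher when set against the floor. Rps19bp1 read 236 and 182 (difference -0.35).

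Several probe sets per gene gave a second view of the same arrays. The 62 genes had 190 probe sets, up to 10 for a gene, and 25 genes had only 1. The mouse genome holds many processed pseudogenes of these genes, and the annotation does not say whether a probe set reads the coding gene or a copy, so each value is uncertain in that respect. Of 36 genes with at least 2 probe sets at or above the floor, 34 had a median below 0 and in 21 every probe set was below 0. In 3 genes, Rpl10, Rpl13 and Rpl27a, probe sets disagreed by at least 1.5-fold in both directions. For Rpl13 they ran from -0.60 to 1.95 and for Rpl27a from -0.86 to 1.64, with the brightest probe set at -0.52 and -0.20.

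Probe sets that the rule left out also mostly read lower in Il34LacZ/LacZ in the values as deposited. The annotation held 209 probe sets that name a ribosomal protein gene together with other symbols, and 20 ribosomal protein symbols stood only there. No value of theirs can be given to one gene. Of these probe sets, 106 had a mean of 1000 or more, with a median difference of -0.29 and 97 below 0, and 13 of the 106 were at least 1.5-fold lower (12.3%). The members' own 108 probe sets that bright had a median of -0.38, and 16.7% were at least 1.5-fold lower. The shared probe sets come from the same RNA and can bind the same transcripts as the members' own, so they are no replicate.

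**Figure D3:**
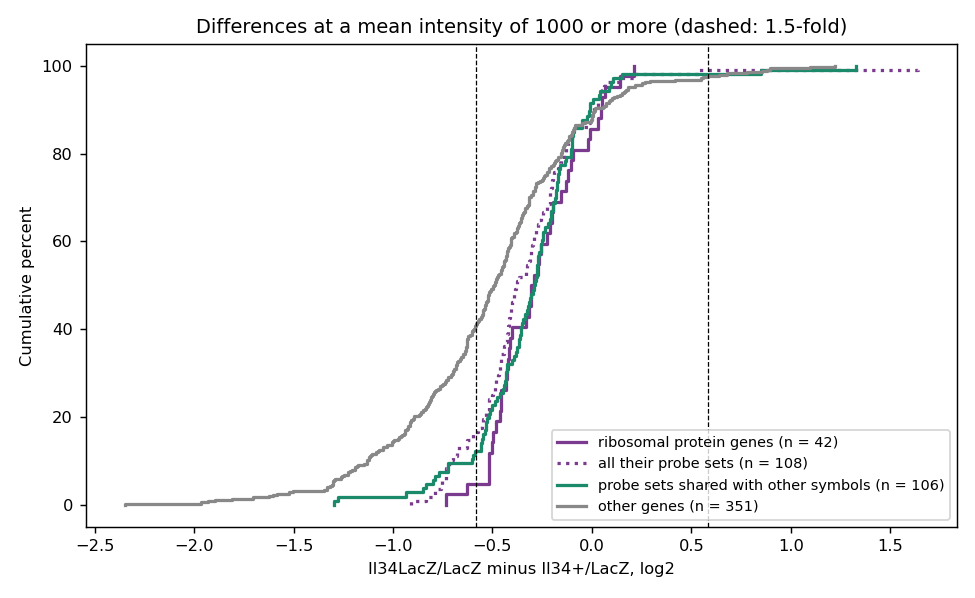
Cumulative percent of differences (log2, Il34LacZ/LacZ minus Il34+/LacZ) at a mean intensity of 1000 or more, for 42 ribosomal protein genes, their 108 probe sets, 106 probe sets shared with other symbols and 351 other genes, with 1.5-fold dashed. The curves of the ribosomal protein sets rise steeply and cross 50% near -0.3 to -0.4, whereas that of the other genes is broad, with 41.0% to the left of the lower dashed line.

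The size of the gap between the subunits varied with the choice of probe set. With the brightest probe set of each gene the 60S median lay 0.28 below the 40S median. With the median over a gene's probe sets it lay 0.09 below, and with the dimmest probe set 0.03 below. Over the 17 structural genes with a single probe set the gap was 0.22, and over all bright probe sets of members the medians were -0.43 for 63 of Rpl genes and -0.24 for 45 of Rps genes. Rps18 and Rps12 show how: their brightest probe sets gave -0.09 and 0.07, and the medians over all their probe sets were -0.41 and -0.25. Among bright probe sets shared with other symbols, 79 that name Rpl genes had a median of -0.30 and 27 that name Rps genes one of -0.28, a gap of a few hundredths.

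Other genes of cytosolic protein synthesis had lower medians than the ribosomal proteins in the values as deposited. Of 16 further TOP mRNAs that passed the floor, 10 were at least 1.5-fold lower (62.5%), against 29.9% of all genes, and none was higher, with a median of -0.65. This list overlaps those that follow, so they are not separate observations. Eef1a1, Eef1b2, Eef1d and Eef2 also stand in the elongation list and Npm1 in the biogenesis list. Eif3e, Eif3f, Eif3h, Eif3k, Eif3l and Eif4b also stand in the initiation list. With the trend removed the median was -0.10, with 0 lower and 1 higher, so none of these calls was left. Eef1a1, the factor that brings tRNAs to the ribosome, read 8643 and 8423 (difference -0.04), and Tpt1, a small TOP protein, read 4670 and 5717 (difference 0.29). Eif3l, a subunit of initiation factor eIF3, read 932 and 405 (difference -1.17). The interquartile range of the TOP list was 0.29, about as narrow as the 0.37 of the ribosomal protein genes, at a lower median.

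Initiation factors had a median of -0.66 over 35 genes, with 19 at least 1.5-fold lower (54.3%) and 1 higher, against 29.9% and 16% of all genes. With the trend removed the median was -0.24, and 8 of 35 were lower, against 18.6% of all genes. Eif3b, a scaffold subunit of eIF3, read 279.6 and 73.4 (difference -1.72), and Eif4a1, the helicase that unwinds mRNA leaders, read 3501 and 1745, 2.00-fold lower. The 11 elongation and termination factors had a median of -0.59, with 6 lower (54.5%) and 1 higher, against 29.9% and 16% of all genes. After trend removal their median was -0.14, with 2 lower and 1 higher, against 18.6% and 13.9%. Eef2, which moves the ribosome along the mRNA, read 3747 and 2491 (difference -0.59), and Eif5a 1176 and 450.5 (difference -1.35).

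Ribosome biogenesis genes, which process ribosomal RNA and assemble subunits, had a median of -0.60 (66 genes). With the dimmer array set no lower than the floor, 32 passed 1.5-fold lower (48.5%) and 2 passed it higher, against 28.2% and 9.36% of all genes. With the trend removed the median was -0.26, with 19 lower and 6 higher, against 18.6% and 13.9%. Heatr1, of the small subunit processome, read 348 and 117 (difference -1.45), and Ncl, which encodes nucleolin, read 1043 and 477 (difference -1.10). Utp14a read 144 and was below the floor on the Il34LacZ/LacZ array, at least 2.47-fold lower. RNA polymerase I genes had a median of -0.41 over 17 genes. Of them 6 were lower (35.3%), near the 29.9% of all genes, and 1 was higher, against 16%. After trend removal their median was 0.00, with 3 lower and 2 higher, against 18.6% and 13.9%. Rrn3, its initiation factor, read 234 and 90.9 (difference -1.23). Among regulators, Myc read 700.2 and 367 (difference -0.90), Rheb, the activator of mTORC1, 849 and 317 (difference -1.38), and Larp1, which binds TOP mRNAs, 586 and 445 (difference -0.39). Of the other regulators, Mxd1 (difference -1.26), Tsc2 (-1.21) and Mxd4 (-1.11) were lower too, and Larp4 was higher (0.998). The list of 16 such regulators had 7 lower (43.8%) and 1 higher, against 29.9% and 16% of all genes, with a median of -0.41. With the trend removed it had 4 lower and 2 higher, against 18.6% and 13.9%, with a median of -0.05. The activity of mTORC1 or Myc was not tested.

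Mitochondrial ribosomal proteins, which serve the separate ribosomes of mitochondria, had the median of the cytosolic ones, -0.28 over 75 genes. With the dimmer array set no lower than the floor, 19 were at least 1.5-fold lower (25.3%), near the 28.2% of all genes. On the same rule 3 were higher (4%), against 9.36%. After trend removal the median was 0.07, with 11 lower and 19 higher, against 18.6% and 13.9% of all genes. The interquartile range was 0.78 at a median intensity of 199 on the Il34+/LacZ array, close to the 0.76 of the 18 cytosolic members with a mean under 1000, whose median intensity was 201. Mrpl11, a protein of the large mitochondrial subunit, read 242 and 70.2 (difference -1.58).

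**Figure D4:**
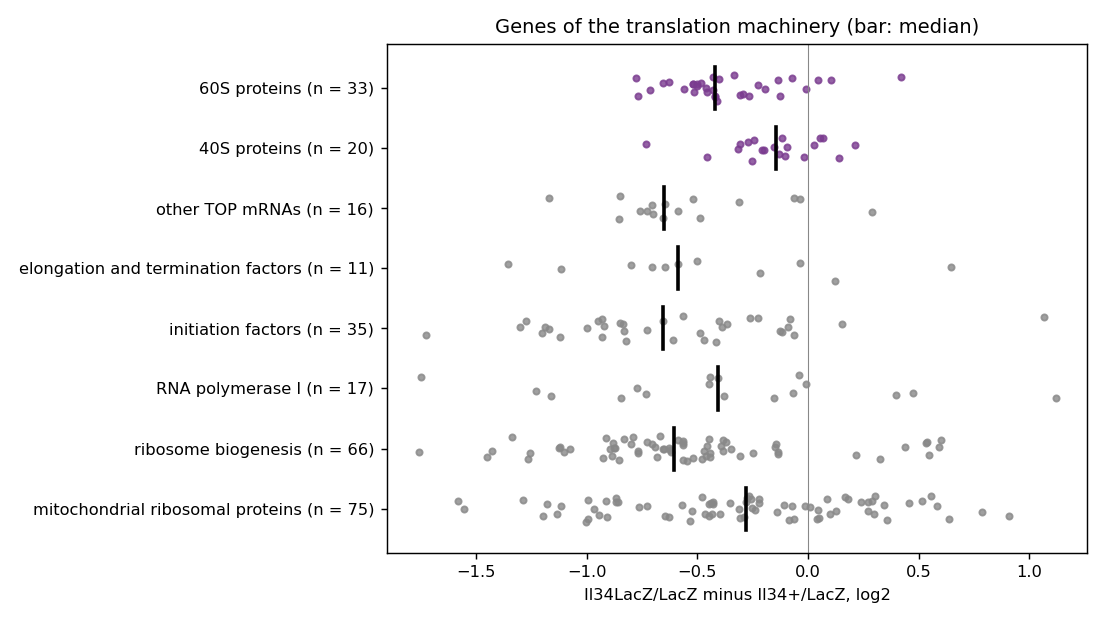
Differences between the arrays (log2, Il34LacZ/LacZ minus Il34+/LacZ) for 60S and 40S genes and for 6 lists of the translation machinery at or above the floor, 1 point a gene, with the median as a bar. The 60S and 40S points lie close around -0.42 and -0.14, while the medians of the initiation, elongation and biogenesis lists lie near -0.6.

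Many ribosomal protein genes carry small nucleolar RNAs in their introns, which are released when the host transcript is spliced and guide the modification of ribosomal RNA. In the RefSeq gene table, 37 small nucleolar RNA genes lie inside 19 of the members, and 8 of the 12 with a single-symbol probe set, inside 7 hosts, reached the floor on at least 1 array. Snord16a, Snora21 and Snord15a did so only on the Il34+/LacZ array, where they were high, so no count over the 8 is given. Snora52 read 384 and 58.8, 5.35-fold lower, while its host Rplp2 differed by -0.65. Snord16a read 188 and Snora21 133 on the Il34+/LacZ array. Both were below the floor on the other array, at least 3.16-fold and at least 2.30-fold lower. Their hosts Rpl4 and Rpl23 differed by -0.01 and 0.05. Because both RNAs passed the floor only through the array where they were high, no contrast with these hosts is drawn. Snord15b, inside Rps3, read 205 and 266 (difference 0.35). Snord15a, inside the same host, read 64.1 and was below the floor on the Il34LacZ/LacZ array, at least 1.24-fold lower. Because Snord15a passed the floor only through the array where it was high, the directions of this pair cannot be set against each other. How well the labelling captures RNAs this short is not given in the sources used here.

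**Figure D5:**
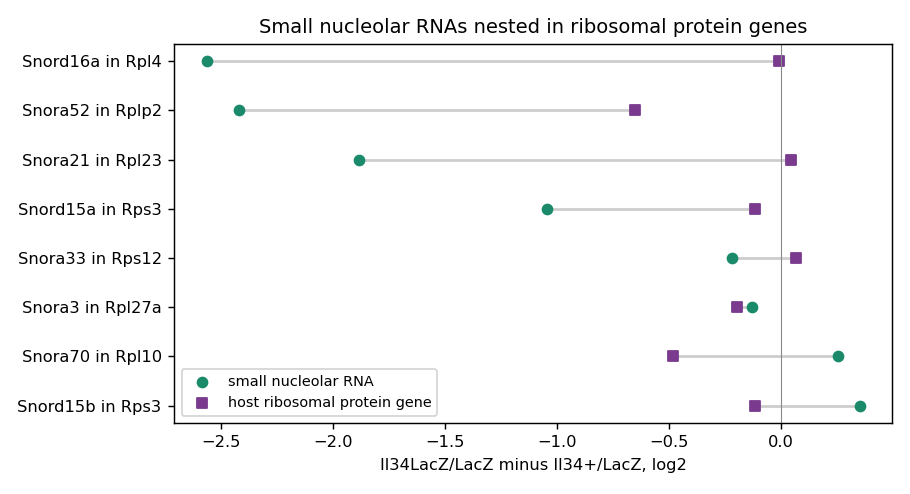
Differences between the arrays (log2, Il34LacZ/LacZ minus Il34+/LacZ) of 8 small nucleolar RNAs (circles) and of the ribosomal protein genes that hold them (squares), 1 array per genotype. Snora52 lies far to the left of its host Rplp2. Snord16a, Snora21 and Snord15a are drawn with values below the floor on the Il34LacZ/LacZ array, so their positions are not set against their hosts.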

How the data were processed

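For each array, the authors deposited a table of linear intensity values, 1 for every probe set. Which summary, background correction and scaling produced them is not stated by labels or headers. The members and lists were chosen with earlier results of these data known. Of 34760 probe sets, 21640 had 1 gene symbol in the platform annotation. A gene was represented by its probe set with the highest mean of both arrays. Values were compared as log2(intensity + 16), where folds understate the change of dim genes, and a dimmer value below the floor gives a lower bound. Counts with the dimmer array set no lower than the floor were added after seeing the data. The trend was a loess fit with a fraction of 0.3. Named genes were the members of the structural groups, the members with the largest differences, paralogs, members with disagreeing probe sets, and up to 4 genes of largest difference in each further list. Eef1a1, Tpt1, Eef2, Eif4a1, Ncl, Myc, Larp1, Larp4 and Cd3e were chosen after their values were seen. So were the nested small nucleolar RNAs and the brightness limit of 1000. With 1 array per genotype there was no test. The trend removal was tested on simulated data. Computation used statsmodels 0.14.6, scipy 1.17.1, pandas 2.3.3 and numpy 2.4.6 under Python 3.11.15, with matplotlib 3.10.9 for the plots.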

Additional observations from a re-analysis of the deposited data

How the results depend on the processing

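Differences are log2, Il34LacZ/LacZ minus Il34+/LacZ, and the cause of each shift was not tested. The members' median (-0.28) was -0.43 with arrays centred on their medians, -0.0206 with the 75th percentile, 0.0420 after quantile normalization, 0.13 with the trend removed, 0.17 with the trend fitted without members and 0.23 with a loess fraction of 0.5. In that order of settings the 60S median (-0.42) was -0.57, -0.16, -0.10, 0.0215, 0.0672 and 0.12, and the 40S median (-0.14) was -0.29, 0.12, 0.14, 0.30, 0.35 and 0.41. Genes at least 1.5-fold lower (8 of 60, against 29.9% of all genes) numbered 18, 1, 3, 3, 3 and 3, against 37.1%, 18.5%, 19.6%, 18.6%, 18.4% and 18.8% of all genes, so the contrast was smaller with median centring. Genes at least 1.5-fold higher (1 of 60) numbered 3, 3, 3, 6 and 7 from the second setting on. The shares of all genes that were higher in those settings were 29.49%, 17.49%, 13.89%, 13.99% and 14.16%. A pseudocount of 64 left 4 lower and 0 higher, a floor at the 75th percentile 0 higher, members without paralogs 0 higher, genes with a single probe set 5 lower, and the dimmest probe set 2 higher. Members of mean 1000 or more had 2 lower and 0 higher. With the dimmer array set no lower than the floor, 8 were lower and 0 higher.

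By probe set rule, the 60S median was -0.32 with the median over probe sets and -0.30 with the dimmest, and the 40S median -0.26 with the dimmest. The 60S minus 40S difference (-0.28) was -0.0902 and -0.0346. The excess of bright members over other bright genes (0.19) was 0.0664 after quantile normalization, 0.10 with the trend removed and 0.11 with the trend fitted without members. The gain in summed share (0.425 percentage points) was 0.0564 with the dimmest probe set and -0.00987 after quantile normalization. Rpl7a (-0.71) was 0.19 with the median over probe sets and 0.35 with the dimmest, both from probe sets below the floor on both arrays. Over all genes, 22.1% were at least 1.5-fold lower with a pseudocount of 64. Genes with a single probe set kept a 60S minus 40S difference of -0.22.

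The brightness limit, the subunit difference, the bright comparison and the counts at the floor were chosen after seeing the data. No paired analysis was possible because each genotype has 1 array. For the same reason leaving out a replicate was not run. Signal over background limits the members near the floor.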
